A study of Homo sapiens with 2 samples.

Results

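Glucose that enters a cell is split into pyruvate by glycolysis or drawn off into side branches, and the 46 genes described here are those of glycolysis and its regulators, the entry of pyruvate into the mitochondrion, the pentose phosphate pathway, the hexosamine pathway and glycogen metabolism. The members were listed by name, and a member was measured when the platform annotation held a probe set that named it and no other gene. This was so for 44 of the 46, among 19775 genes in all. GFPT2 and PGM3, both of the hexosamine pathway, were not analysed here. The measured members had 102 probe sets, where a probe set is a group of short probes on the array that reads 1 transcript or part of it. In 27 members there were several probe sets and in 17 members 1.

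FaDu is an established line from a squamous carcinoma of the human pharynx. The vector group carried a control vector, and the GLUT4 group carried the sequence of GLUT4, a glucose transporter that insulin brings to the surface of muscle and fat cells. Both groups were transduced with lentivirus, selected with puromycin and grown in MEM with serum, and each gave 1 Affymetrix U133 Plus array from total RNA. The methods call the selected cells stable clones. The promoter that drove GLUT4, and how many clones each RNA came from, are not given in the sources used here. Since a group was a single array, nothing checks these values by replication, no test was possible and no p-value is given. Any other difference between the stable populations cannot be told apart from that of GLUT4, nor can fewer cells of a type from less RNA per cell.

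Glycolysis turns glucose into pyruvate in a series of steps, of which those of hexokinase, phosphofructokinase and pyruvate kinase are the controlled ones. Squamous carcinomas are known for running it strongly and for turning much of the pyruvate into lactate even where oxygen is present. The pentose phosphate pathway takes glucose 6-phosphate for NADPH and ribose, the hexosamine pathway takes fructose 6-phosphate for the sugar donor of protein glycosylation, and glycogen synthesis stores glucose. The comparison asks whether the RNA of these enzymes stood at another level in cells given a further glucose transporter.

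The values are linear intensities that the authors had made comparable between the arrays before deposit, and each difference is log2(GLUT4 intensity) minus log2(vector intensity). A gene is represented by the brightest of its probe sets, judged over both arrays. Intensities are given with the vector array first. Over 54675 probe sets the median intensity was 39.7 with the vector and 39.1 with GLUT4. Over 10523 genes with several probe sets, a single probe set had an SD of 0.20 on the log2 scale, estimated from the difference between a pair for the same gene. It was 0.16 where the dimmer of the pair read above 130.3. This SD is the technical error used here and does not cover variation between cultures. SLC2A4, which encodes GLUT4, read 28.3 and 32.6, below the median signal of 39.3 in both groups, and whether its probe set lies within the introduced sequence was not determined, so it does not check the labels. Of 7 measured markers of squamous epithelium, 7 lay above the median signal, with summed intensities of 47225 and 46725, and 3 further listed ones were not analysed here. Among the 7, KRT14 read 1963 and 3985 and EPCAM 5361 and 3020.5. Leukocyte markers had 0 of 5, muscle and fat markers 0 of 6, endothelial markers 2 of 4 and fibroblast markers 4 of 6 above the median signal. Of all 19775 genes, 12939 lay above it, so the fibroblast and endothelial counts do not stand out from the background. The sum over fibroblast markers was 834 with the vector and 1459 with GLUT4, mostly DCN at 482 and 1050, with LUM at 38.5 and 79.9, while COL1A1 read 224 and 226 and COL3A1 15.2 and 17.4. The sum over endothelial markers was 208 and 119.5, mostly PECAM1 at 141 and 48.2. The part of these markers in the differences that follow was not tested.

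The glucose genes differed little between the arrays, and the exception lay in the hexosamine pathway. OGT, the enzyme that attaches N-acetylglucosamine to serines and threonines of intracellular proteins, was 1.65-fold lower in the GLUT4 cells. It was the only one of 44 measured members past 1.5-fold, the threshold of the study's methods. No member was past 1.5-fold higher, against 1.84% of all genes, and 1 of 44 was past it lower, against 1.54%, so neither count stands far from the background. The members lay between -0.72 and 0.47, with a median of 0.04, beside a median of -0.02 over all genes. In 31 of the 44 the difference was within 0.20, the SD of a single probe set. Above 0 lay 27 members and below it 17, where 47.8% of all genes lay above 0. Without probe sets of the x_at and s_at kinds, which may bind related transcripts, 14 of the 31 members left lay above 0, with a median of -0.01, and 5 of 13 glycolytic genes did. Among probe sets, 0 of 102 were past 1.5-fold higher, against 1.96% of all probe sets that name 1 gene, and 2 were past it lower, against 1.38%. Both of these belong to OGT.

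A threshold of 1.2-fold, which was chosen after the data had been seen, was passed by 6 members higher with GLUT4 and by 2 lower. Of all genes, 10.2% passed it higher and 11.8% lower, so the first count was close to the background and the second below it. The 6 were GYS1, PFKFB3, GPI, PFKL, UAP1 and UGP2, and the 2 were OGT and PFKFB4. Among the 6, GYS1, PFKFB3, GPI and UGP2 were read by s_at probe sets and PFKL by an x_at one. Without probe sets of these kinds, GYS1, PFKFB3, GPI and PFKL had no value and UGP2 lay at -0.22. UAP1, OGT and PFKFB4 kept their values. They came from glycolysis, its regulators, the hexosamine pathway and glycogen metabolism, and none from the pentose phosphate pathway or pyruvate entry.

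**Figure D1:**
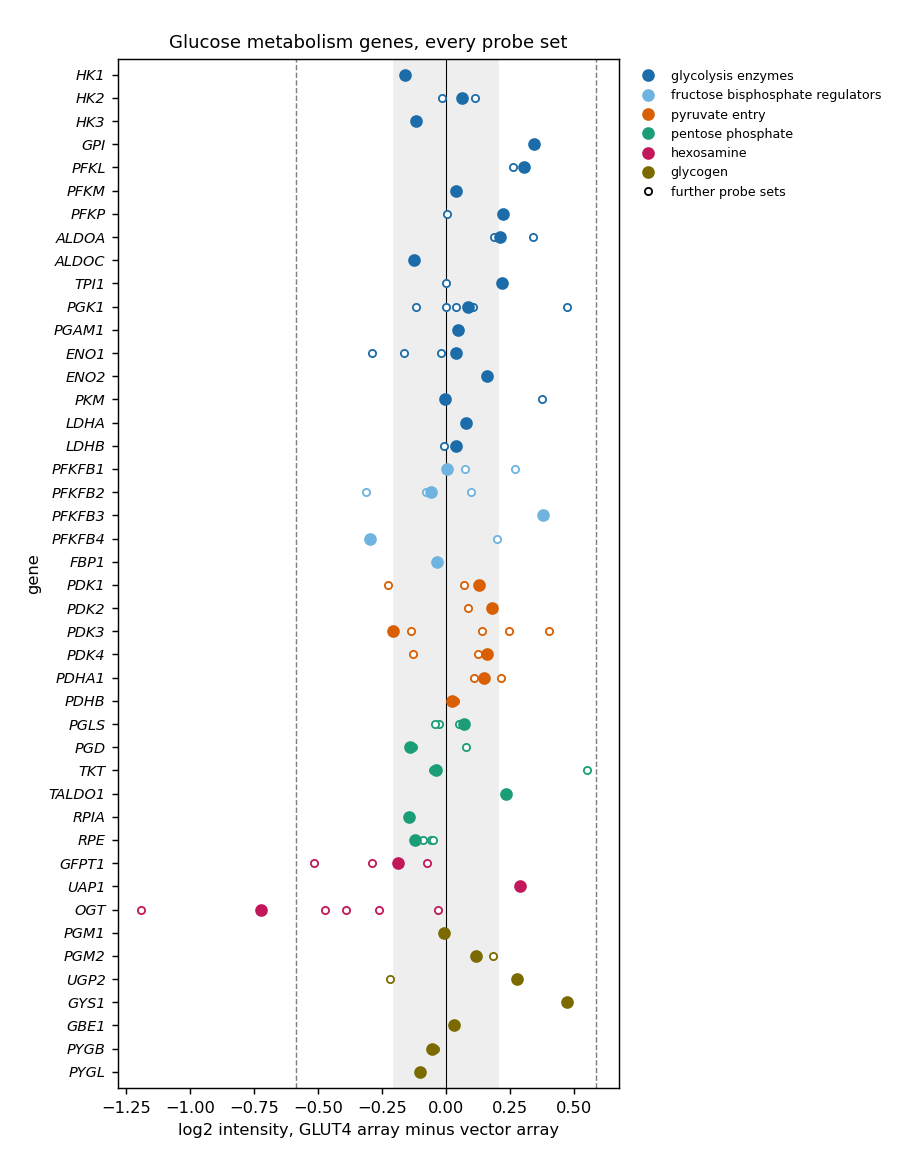
Each row is a measured gene, and the horizontal axis gives the log2 difference, GLUT4 minus vector. Filled points are the probe set that represents the gene, open points its further probe sets, colours the branches, the grey band 0.20 to each side of 0 (the SD of a single probe set) and the dashed lines 1.5-fold. Most points lie in or near the band, and the 6 probe sets of OGT lie to the left of 0, with 2 of them past the line.

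The 22 genes of glycolysis and its regulators were measured without exception and had a median difference of 0.04, with 15 above 0 and 7 below. The 17 enzymes alone had a median of 0.06 and lay between -0.16 and 0.34. At the head of the pathway, hexokinase phosphorylates glucose and so keeps it in the cell. HK1, the housekeeping form, read 2023 with the vector and 1810.15 with GLUT4, a difference of -0.16 on its 1 probe set. HK2, the form often raised in tumours, read 740.3 and 773.8 (0.06), and its further probe sets lay at 0.11 and -0.02. HK3 was dim, at 44.6 and 41.1. No hexokinase thus differed by more than 1 SD of a single probe set.

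Glucose-6-phosphate isomerase, GPI, converts glucose 6-phosphate to fructose 6-phosphate and had the highest difference of the 17 enzymes. Its probe set read 1318 with the vector and 1672 with GLUT4, a difference of 0.34. The phosphofructokinases, which commit the sugar to glycolysis, all read higher with GLUT4, also under the 3 scalings tried. The liver form PFKL stood at 226 and 279 (0.30), with a second probe set at 135 and 162 (0.26). PFKP, the platelet form, stood at 2186 and 2552 (0.22), and the muscle form PFKM at 2208 and 2270.3 (0.04). A difference above 1 SD was thus measured for PFKL and PFKP, while PFKM lay close to 0. The brighter probe set of PFKL is of the x_at kind.

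The 250 bases before the start of GPI are shown because GPI had the highest value among the enzymes and because the window holds ACGTG, the core letters of the element through which hypoxia-inducible factors are known to act on glycolytic genes. Capitals mark ACGTG or its reverse complement CACGT, and the sequence runs 5′ to 3′ on the strand of the gene, from RefSeq on GRCh38.p14. A match is a description of the letters and not a site. Since the window was picked partly for its match, the match cannot be set against the value of GPI. The windows of PFKL, the enzyme with the next highest value, and of GYS1, the highest member, do not hold these letters. PFKFB3, the next highest member after GYS1, holds them in 1 of 2 windows.
GPI (chr19:34364742-34364991, plus strand): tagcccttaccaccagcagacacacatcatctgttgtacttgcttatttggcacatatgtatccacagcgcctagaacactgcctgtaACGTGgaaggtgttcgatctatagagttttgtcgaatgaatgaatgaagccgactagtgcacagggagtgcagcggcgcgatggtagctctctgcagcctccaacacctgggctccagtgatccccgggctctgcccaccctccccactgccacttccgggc

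Aldolase and triose-phosphate isomerase yield the 3-carbon sugars, and the main form of each read higher in the GLUT4 cells. ALDOA read 6446 and 7466 (0.21), and its 3 probe sets, each an x_at, lay between 0.19 and 0.34. TPI1 read 5456 and 6354 (0.22), with a second probe set at 4763 and 5525 (0.21). A remaining, dim probe set of TPI1 read 57.8 on both arrays. ALDOC, the brain form of aldolase, was at 60.2 and 55.2 (-0.13). GAPDH, which follows in the pathway and is no member, had 6 probe sets between 0.07 and 0.13, the brightest at 16637 and 17514.

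The lower steps were read at high intensity, and their differences were small. PGK1, phosphoglycerate kinase, read 11699.5 and 12402.5 (0.08). Its 5 further probe sets gave 0.47 at 2464 and 3416, 0.10 at 3486 and 3746, 0.04 at 7307 and 7497, 0.00 at 83.1 on both arrays, and -0.12 at 37.8 and 34.8. The 4 brightest of the 6 thus read higher, by unequal amounts. The mutase PGAM1 read 10203 and 10537 (0.05), and the enolase ENO1 read 11087 and 11392 (0.04). Further probe sets of ENO1 gave -0.02 at 10435 and 10284, -0.16 at 346 and 309, and -0.29 at 22.2 and 18.1. ENO1 thus lay near 0 on its brightest probe sets and below 0 on the others. ENO2, the neuronal form, read 15.8 and 17.6, below the median signal.

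Pyruvate kinase PKM, which makes pyruvate, read 499 and 497 (-0.01) on its brighter probe set and 40.5 and 52.4 (0.37) on the dimmer. Which splice form of PKM each probe set reads was not determined. Lactate dehydrogenase LDHA, which turns pyruvate into lactate, read 13894 and 14654 (0.08). LDHB, which favours the reverse, read 13777 and 14163 (0.04) on an x_at probe set and 9745 and 9691 (-0.01) on another. Neither subunit differed by more than 1 SD.

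Among members with a mean intensity of at least 1000, most glycolytic genes lay above 0. This cut does not come from the study's methods, and the SD of a probe set was not estimated at it. Of 11 such genes 10 lay above 0, with a median of 0.08, and HK1 lay below. Of all 3056 genes that bright, 1654 lay above 0, with a median of 0.02. With equal array medians, quantile normalization or a loess fit, the 11 again had 10 above 0, with medians of 0.10, 0.06 and 0.06, and of all 22 glycolytic genes 16, 15 and 16 lay above 0. These scalings keep the same probe sets. Of the 11 genes, only HK1 and PFKP were read by probe sets of neither the x_at nor the s_at kind. Without those kinds, 5 of 13 glycolytic genes lay above 0, with a median of -0.01, and dim genes were among the 13.

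Fructose 2,6-bisphosphate, the strongest known activator of phosphofructokinase, is made and broken down by the PFKFB enzymes. PFKFB3, the form with the most active kinase, read 386 with the vector and 502 with GLUT4, a difference of 0.38. PFKFB4 lay on the other side, at 76.6 and 62.3 (-0.30), but its second, dimmer probe set read 32.1 and 36.8 (0.20), so the direction of PFKFB4 depends on the probe set. PFKFB2 read 269 and 258 (-0.06), and its further probe sets gave 0.10 at 51.6 and 55.1, -0.08 at 22.1 and 20.9, and -0.31 at 27.3 and 22.0. PFKFB1, the liver form, was dim at 30.9 on both arrays. FBP1, which reverses the phosphofructokinase step in gluconeogenesis, read 41.3 and 40.3 (-0.04). The 5 regulators had a median of -0.04. PFKFB3 and PFKFB4 differed by more than 1 SD, in opposite directions, and PFKFB3 has 1 probe set to show it.

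Pyruvate enters the citric acid cycle through the pyruvate dehydrogenase complex, which the PDK kinases switch off. The 6 members had a median difference of 0.14, with 5 above 0 and 1 below, and the median was 0.07 where the probe sets of each gene were averaged, with PDK1 then at -0.01. PDK1, the form that hypoxia-inducible factors are known to raise, read 1287 and 1406 (0.13), with further probe sets at 164 and 172 (0.07) and at 12.6 and 10.7 (-0.23). PDK2 read 107 and 121 (0.18). PDK3 gave readings of both signs. Its brightest probe set read 623 and 539.9 (-0.21) and a second 164 and 149 (-0.14), while the others read 135 and 178 (0.40), 125 and 148 (0.25), and 43.8 and 48.3 (0.14). PDK4 was dim, at 18.3 and 20.4 (0.16), with 7.52 and 8.19 (0.12) and 6.38 and 5.84 (-0.13) on the others. The subunits of the complex itself, PDHA1 at 3217 and 3559.8 (0.15) and PDHB at 2506 and 2544 (0.02), lay above 0 on every probe set, although under quantile normalization 1 of their 5 probe sets lay at -0.01. PDK3 lay 1 SD from 0 on its chosen probe set, and the other 5 genes lay closer.

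The pentose phosphate members had a median difference of -0.08, with 2 of 6 above 0. Of its oxidative steps, PGLS, the lactonase, read 881 and 925 (0.07). PGD, which releases NADPH and ribulose 5-phosphate, read 1436 and 1304 (-0.14), with dim probe sets at 50.2 and 52.9 (0.08) and at 35.8 and 32.7 (-0.13). In the steps that follow, RPIA read 1074 and 973 (-0.14), and RPE read 2707 and 2488 (-0.12) and lay below 0 on 4 of 4 probe sets. TALDO1, the transaldolase that returns carbon to glycolysis, was the member of this branch furthest from 0, at 2181 and 2568 (0.24). Transketolase, TKT, which shares that role, read 7783 and 7579.7 (-0.04), with 5539 and 5343 (-0.05) on a second probe set. A remaining probe set of TKT, of low signal, read 76.1 and 111 (0.55). TKT thus lay near 0 on its brighter probe sets and above 0 on the remaining one.

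The hexosamine pathway had the lowest median of the branches, -0.19 over 3 measured genes of 5 listed, which is the value of GFPT1. GFPT1, the aminotransferase that commits fructose 6-phosphate to the pathway, read lower with GLUT4 on 4 of 4 probe sets. The probe sets stood at 1003 and 882 (-0.19), at 586 and 409.9 (-0.51), at 535 and 438 (-0.29), and at 459.7 and 437 (-0.07), a mean of -0.27. UAP1, which makes UDP-N-acetylglucosamine at the end of the pathway, read 3977 and 4858 (0.29) on its 1 probe set. The first and the last step of the pathway thus lay on opposite sides of 0.

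OGT spends this sugar donor on proteins, and its RNA was read by 6 probe sets. The brightest read 1334 with the vector and 807.5 with GLUT4, a difference of -0.72. The next read 298 and 227 (-0.39), 235 and 169 (-0.47), and 167 and 164 (-0.03). The dim ones read 36.7 and 16.1 (-1.19) and 22.1 and 18.4 (-0.26). All 6 were lower in the GLUT4 cells, with a mean of -0.51 and an SD of 0.40 between them, so the direction was shared and the size was not. The 6 lay below 0 under each of the 3 scalings too, as did the 4 probe sets of GFPT1. Which transcript forms of OGT each probe set reads was not determined. OGA, the enzyme that removes the same sugar from proteins, was listed among further genes of the pathway and is named here after its values were seen. It lay on the other side of 0, at 1495 and 1909 (0.35), 257 and 343 (0.42), and 72.3 and 87.5 (0.28). Its 2 dimmest probe sets read 38.0 and 30.7 (-0.31) and 7.27 and 7.29 (0.00). The enzyme that adds the sugar was thus lower on every probe set, and the enzyme that removes it was higher on the 3 brightest of 5. The other measured further genes of the pathway, GNPNAT1, NAGK, GNPDA1 and GNPDA2, lay near 0, between -0.06 and 0.04.

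**Figure D2:**
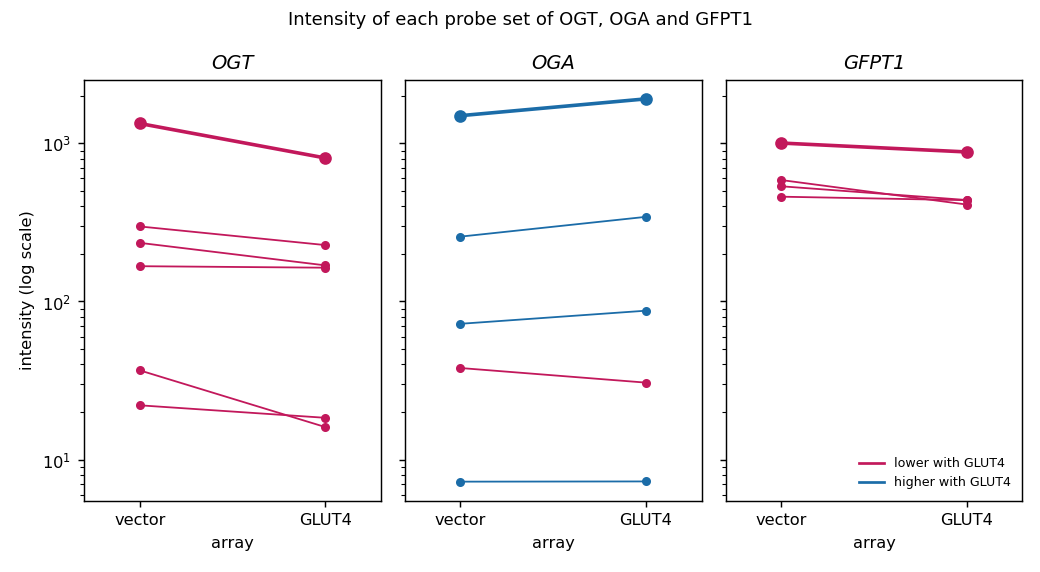
Each line joins the intensities of 1 probe set, compared between the vector and the GLUT4 array, on a log axis, for OGT, OGA and GFPT1; the thick line is the probe set that represents the gene, and red marks a lower and blue a higher reading with GLUT4. All 6 lines of OGT and all 4 of GFPT1 go down, by up to 1.19 on the log2 scale, and the 3 upper lines of OGA go up.

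The windows of 250 bases before the starts of these 3 genes are shown because OGT and GFPT1 were lower on all of their probe sets and OGA was higher on its brightest ones. They come from RefSeq on GRCh38.p14, run 5′ to 3′ on the strand of the gene, and carry capitals where ACGTG stands on either strand. The window of GFPT1 holds it 1 time, and those of OGT and OGA do not hold these letters.
OGT (chrX:71532854-71533103, plus strand): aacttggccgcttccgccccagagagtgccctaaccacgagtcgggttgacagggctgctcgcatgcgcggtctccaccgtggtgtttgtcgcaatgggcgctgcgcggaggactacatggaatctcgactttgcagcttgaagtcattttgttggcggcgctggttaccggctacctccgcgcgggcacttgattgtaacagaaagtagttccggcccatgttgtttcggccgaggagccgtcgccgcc
OGA (chr10:101818445-101818694, minus strand): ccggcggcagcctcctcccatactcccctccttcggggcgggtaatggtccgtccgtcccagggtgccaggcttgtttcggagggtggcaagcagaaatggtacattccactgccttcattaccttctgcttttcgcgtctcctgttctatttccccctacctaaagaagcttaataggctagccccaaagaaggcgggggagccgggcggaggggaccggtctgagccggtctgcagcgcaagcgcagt
GFPT1 (chr2:69387228-69387477, minus strand): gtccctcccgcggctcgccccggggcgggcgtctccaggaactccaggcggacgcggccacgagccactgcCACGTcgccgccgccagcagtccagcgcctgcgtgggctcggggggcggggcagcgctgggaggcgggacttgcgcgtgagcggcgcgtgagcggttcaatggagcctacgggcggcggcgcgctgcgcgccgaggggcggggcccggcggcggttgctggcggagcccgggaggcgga

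ACGTG was searched on both strands in the windows of all genes, together with CACGTG, the E-box that MYC is known to bind. CACGTG contains ACGTG, so a window with the longer motif is counted for both. Of 35116 windows of this length, 18.5% held ACGTG and 6.34% held CACGTG. A window was available for 45 of the 46 members, and of their 76 windows 34.2% held ACGTG and 10.5% held CACGTG. By branch, ACGTG stood in 14 of 43 windows of glycolysis, 4 of 9 of pyruvate entry, 1 of 6 of the pentose phosphate pathway, 3 of 8 of the hexosamine pathway and 4 of 10 of glycogen metabolism. Windows of a gene with several starts can overlap, and these shares say nothing of binding.

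The 7 members of glycogen metabolism had a median difference of 0.03. GYS1, the muscle-type glycogen synthase, had the highest value of all 44 members, at 78.7 with the vector and 109 with GLUT4 (0.47) on its 1 probe set. UGP2 makes UDP-glucose, the donor that glycogen synthase uses, and read 4414 and 5348 (0.28). Its second probe set was near the floor of the array, at 10.3 and 8.83 (-0.22). PGM1, the phosphoglucomutase that links glucose 6-phosphate to this branch, stood at 2881 and 2866 (-0.01). PGM2, listed with this branch, stood at 4097 and 4446 (0.12) and was higher on 3 of 3 probe sets. The branching enzyme GBE1 read 1713 and 1749 (0.03). The phosphorylases, which break glycogen down, read 564 and 543 (-0.05) for PYGB and 1716 and 1601 (-0.10) for PYGL. GYS1 and UGP2, which build glycogen, thus lay above 0 by more than 1 SD. GBE1, which also builds it, and the phosphorylases lay within 1 SD of 0, so no opposite shift of synthesis and breakdown is shown. Both GYS1 and UGP2 were read by s_at probe sets. Without x_at and s_at probe sets the median of this branch was -0.04.

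**Figure D3:**
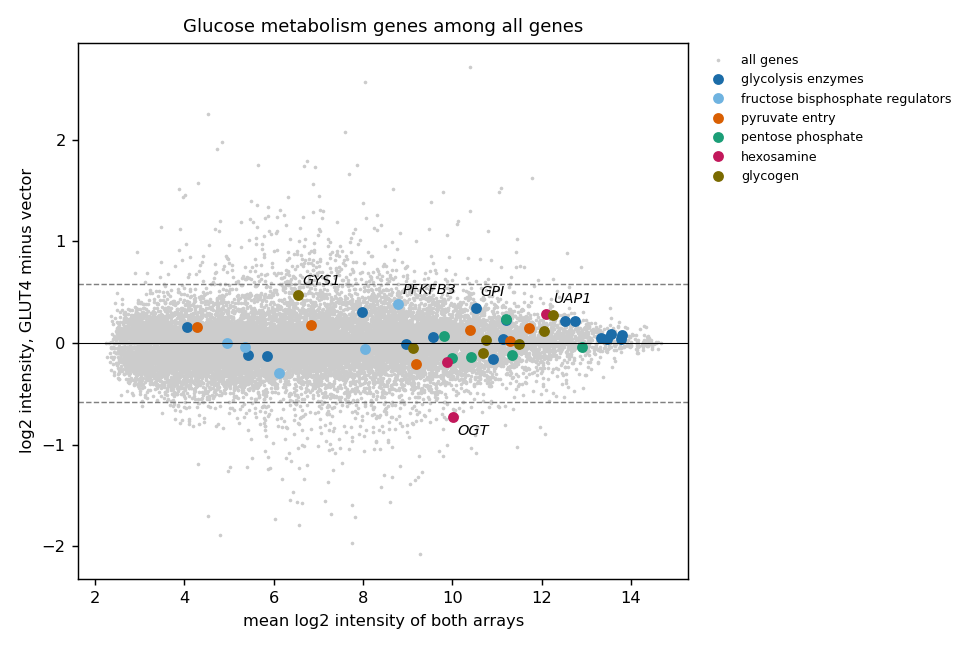
The horizontal axis gives the mean log2 intensity of both arrays and the vertical axis the log2 difference, GLUT4 minus vector, for all 19775 genes in grey and the 44 members in colour by branch; the dashed lines mark 1.5-fold. The members lie mostly at high intensity and near 0, and OGT at -0.72 is the member beyond a dashed line.

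Further genes of the same branches were listed by their role, and 41 of 45 were measured. Their median difference was 0.02, with 22 above 0 and 19 below, and 1 was past 1.5-fold higher and 0 lower, where 1.84% and 1.54% of all genes were, so these counts are near the background. That 1 was RBKS, the ribokinase that feeds free ribose into the pentose phosphate pathway, at 248 and 411 (0.73), with a second probe set at 192 and 322 (0.74). Both probe sets of RBKS differed by more than 3 SD of a single probe set. At 1.2-fold, 6 of the 41 were higher and 4 lower, also near the shares of all genes, 10.2% and 11.8%. The following were named after their values were seen. MPC1, a subunit of the mitochondrial pyruvate carrier, read 502 and 650.3 (0.37), while MPC2, its partner, lay at -0.10 on its chosen probe set and at -0.31 on the other. PPP1R3B, which brings a phosphatase to glycogen and so activates its synthesis, read 357 and 485 (0.44), 53.5 and 98.0 (0.87), and 13.2 and 11.7 (-0.17). The subunits of phosphorylase kinase differed in sign, with PHKA2 at 245 and 330.1 (0.43) and PHKB at 1054 and 849 (-0.31). PYGM, the muscle phosphorylase, was dim at 34.5 and 26.0 (-0.41). GYG1, also of the glycogen branch, was bright and lay near 0, at 2412 and 2402 (-0.01).

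**Figure D4:**
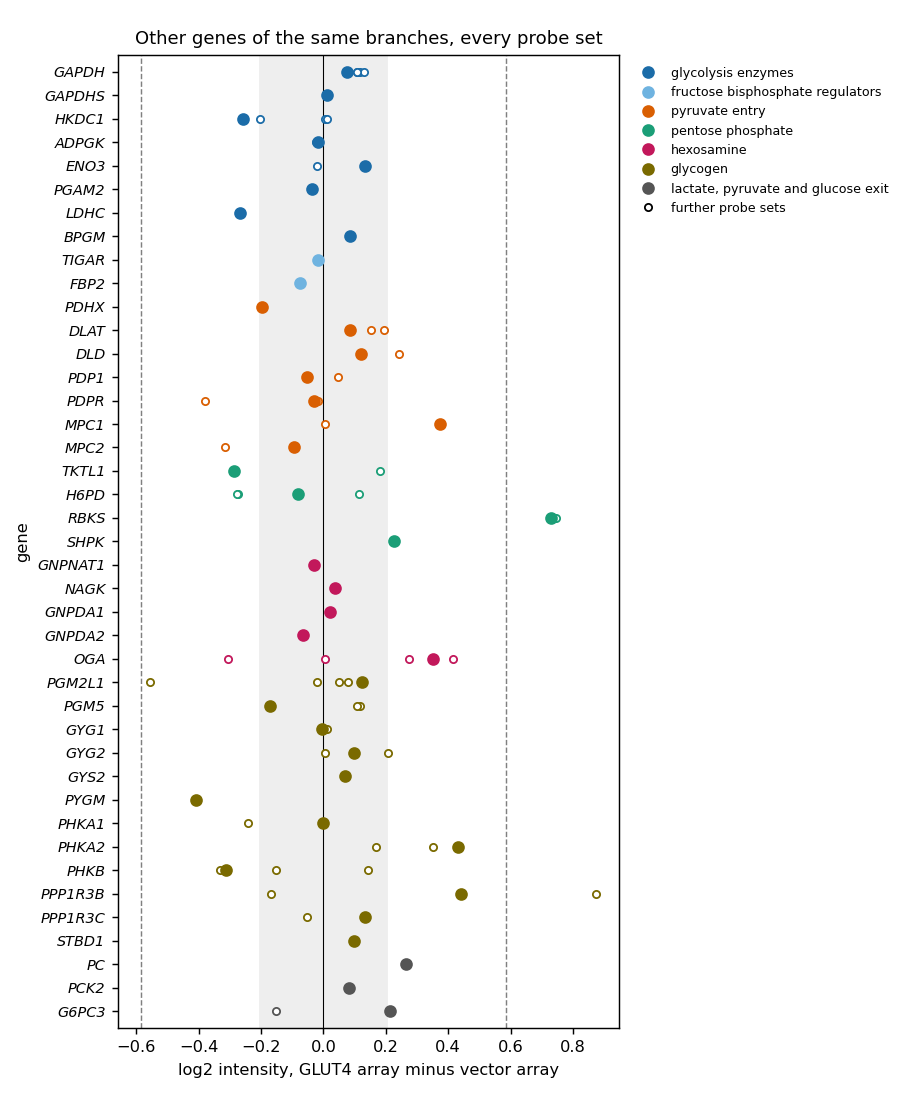
Each row is a further gene of the same branches, with the log2 difference, GLUT4 minus vector, on the horizontal axis; filled points are the representing probe set, open points the others, the grey band 0.20 to each side of 0 and the dashed lines 1.5-fold. RBKS stands past the right line on both probe sets, PPP1R3B has 1 open point past it, and OGA has its filled point at 0.35.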

How the data were processed

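RNA from FaDu cells with the control vector or GLUT4 was hybridized to 1 array each. The methods of the study name GeneSpring, with normalization to log2 values, while MAS5 stands in the submitters' processing notes. The sources used here do not give the order of these steps. The intensities that the authors deposited are linear, start at 4.15, and have nearly the same distribution on each array, with sorted log2 values at most 0.15 apart. A lowest value of 1 was set before log2. The platform annotation gave 1 gene for 41097 of 54675 probe sets, which were used, several for 1801, and 11777 are unnamed here. Precision is limited by the number of arrays.

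The members and lists were chosen with earlier results of these data known. All probe sets of a member are given where one passed 1.5-fold, where the chosen one was among the 5 largest differences in either direction, or where they differed in sign by more than 1 SD, the SD being that of single probe sets estimated from pairs. The procedure was tested on simulated data. Alternatives were equal array medians, quantile normalization, an offset of 32, loess (fraction 0.3), only genes above the median signal, no x_at or s_at probe sets, the mean over probe sets, and the brightest probe set of the vector array. Python 3.11.15 was used with pandas 2.3.3, numpy 2.4.6, statsmodels 0.14.6, scipy 1.17.1 and matplotlib 3.10.9.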

Additional observations from a re-analysis of the deposited data

How the results depend on the processing

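Under the 8 alternatives, no member passed 1.5-fold higher. OGT passed it lower in all but the mean over its probe sets, where its difference was -0.51 and the count of members was 0. The 1.2-fold threshold, chosen after the data had been seen, gave 6 members higher and 2 lower. The hexosamine median was -0.51 without x_at and s_at probe sets, since GFPT1 was then read by a probe set at -0.51 and UAP1 and OGT kept theirs. The same choice left 13 of 22 glycolytic genes, 5 of them above 0, and turned their median to -0.01. It also put ENO1 at -0.29, TPI1 at 0.00, TKT at 0.55 and UGP2 at -0.22, all on dimmer probe sets. The mean over probe sets put PFKFB4 at -0.05, PDK3 at 0.09 and UGP2 at 0.03. Of 155 values of the 20 genes given in full, the other 146 moved by less than 1 SD of a single probe set. Much of this count was fixed by the settings. Keeping only genes above the median signal leaves a value as it was, and the mean cannot move a gene with 1 probe set. The brightest probe set of the vector array was the one already chosen for all 20. The arrays were matched before the 3 scalings, with a median gap of 0.02 between sorted log2 values, so these could move a value only a little. GPI, PFKL, PFKFB3 and GYS1 had no value without x_at and s_at probe sets, so that choice could not move them. The 3 scalings left 26 to 29 of 44 members above 0, but without x_at and s_at probe sets 14 of the 31 members left were, with a median of -0.01. Averaging probe sets moved the pyruvate entry median to 0.07. No paired analysis was possible because each group had 1 array. The values give no depth, and low signal limits HK3 and FBP1, near the median of all probe sets, and ENO2, PFKFB1 and PDK4, below it.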

Other observations

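Other routes that start from the same sugars were described with a list of 27 genes, chosen after the values of the members were seen, of which 21 were measured. Their median difference was 0.01, with 12 above 0 and 9 below. On their chosen probe sets, the 5 measured genes of mannose and galactose use all read higher in the GLUT4 cells. They lay between 0.13 and 0.31, with a median of 0.29. Of all genes, 47.8% lay above 0. GALT, which exchanges galactose and glucose between their activated forms, read 194 with the vector and 240.3 with GLUT4 (0.31), and GALK1, galactokinase, read 118 and 142 (0.27). Their dim further probe sets gave 0.13 and 0.01 for GALT and 0.01 for GALK1. MPI, which links fructose 6-phosphate to mannose, read 79.2 and 96.5 (0.29) and 66.1 and 92.8 (0.49), and PMM1 read 191 and 233 (0.29). GMPPA read 136 and 149 (0.13).

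The hyaluronan synthases build a matrix polymer from UDP-sugars of the hexosamine and uronic acid branches. HAS3 read 153 and 85.0 (-0.85), the 1 gene of this list past 1.5-fold on its chosen probe set, while its second, dim probe set read 28.4 and 31.4 (0.15). Of the 21 measured genes, 1 was thus past 1.5-fold lower and 0 higher. The shares of all genes were 1.54% and 1.84%, so these counts are near the background. HAS2 was dim on both of its probe sets, at 23.2 and 30.8 (0.40) and at 14.6 and 25.8 (0.82). UGDH, which makes UDP-glucuronic acid, read 1821 and 1607 (-0.18). The 5 genes of serine synthesis and use had a median of 0.00, and the 3 glycerol phosphate dehydrogenases had a median of -0.02.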
